A study of Capra hircus with 9 samples.

Results

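The mitochondrial ribosome, or mitoribosome, carries its own set of proteins, encoded in the nucleus by genes named MRPL for the large subunit and MRPS for the small subunit. The genes described here are all those whose symbol is MRPL or MRPS followed by a number, with or without a final letter, and which had a value in every library. This rule found 73 of the 18383 genes named in the files, 47 MRPL and 26 MRPS, and did not use how a gene behaved. All 73 are also in the RefSeq gene table for the goat, and all 73 passed the filter on low values, at least 1 FPKM in at least 3 libraries. FPKM counts sequenced fragments per length of transcript and relative to all mapped fragments, so levels can be compared between genes.

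Mitoribosomes translate the few proteins that the mitochondrial genome encodes, all of them parts of the respiratory chain and of ATP synthase. Their proteins are made on cytosolic ribosomes and imported into the organelle. Many have a counterpart in the bacterial ribosome, and others were added in the evolution of mitochondria. The absorptive rumen epithelium is rich in mitochondria and oxidises short-chain fatty acids from fermentation, with butyrate a main fuel.

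RNA was sequenced from the rumen epithelium of goats (Capra hircus) aged 4 months in 3 diet groups, HC, MC and LC, of 3 libraries each. The labels give these letters and say that the diets differed in the type of concentrate, without saying what the letters stand for. Breed, sex and time on the diet were not stated in the labels. The labels also do not say that libraries came from separate animals, so p-values measure only the spread between these samples, which may be technical.

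The libraries listed 15123 to 16696 genes each, and the summed FPKM of a library was lowest in LC1 (755624) and 903006 to 1051183 elsewhere. No read counts were used, so sequencing depth is unknown. A header word set the HC files apart, and only they had empty lines, 11468 to 12038 per file, so the diet HC and the making of those files cannot be told apart. Of the stratified epithelium markers, 8 were in the files, and each was above 1 FPKM in every library. They summed to 6257 to 8828 FPKM in LC, 7193 to 8365 in MC and 6517 to 8532 in HC, and their mean log2(FPKM + 1) was 8.34 to 8.81 in LC, 7.89 to 8.11 in MC and 8.21 to 8.45 in HC. Of these 8, 1 fell in MC minus LC (KRT4, a keratin of stratified epithelia, -4.11), 2 fell in HC minus LC (KRT4, -1.28, and DSG3, -1.01), and in HC minus MC 2 rose (KRT4, 2.83, and TP63, 0.43) and 1 fell (DSG3, -0.90). The part of these differences in the results was not tested. Levels of 10 smooth muscle markers differed widely between libraries: they summed to 2423 FPKM in LC1, 1300 in LC2 and 60.5 in LC3, to 1185 to 3666 in MC and to 115.2 to 149.8 in HC, with 2 of the 10 below 1 FPKM in LC3. Fibroblast markers (124.0 to 540.5 FPKM in sum) and endothelium markers (6.57 to 41.7) were highest in LC1, and immune cell markers summed to 64.7 to 69.9 in LC, 27.9 to 34.6 in MC and 35.7 to 47.1 in HC. In bulk tissue, fewer cells of a type and less RNA per cell cannot be told apart.

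LC1 stood apart in the mitoribosome genes themselves. The lowest of the 9 values was in LC1 for 62 of the 73 genes, against 22.2% of all genes tested. Their median was 36.3 FPKM in LC1 and 46.5 to 55.5 FPKM in the other libraries. Against the mean of LC2 and LC3, LC1 was lower by a median of 0.59 on the log2 scale over the 73 genes (log2 difference -0.5887), while the median over all genes tested was -0.0661. LC1 lay below both LC2 and LC3 for 70 genes, from MRPL30 (log2 difference -1.276) on. The 3 exceptions were MRPL53 (0.25), MRPL23 (0.073) and MRPL57 (0.042), which code for large subunit proteins. The 73 genes of cytosolic ribosomal proteins were below both other LC libraries in LC1 too, all 73 of them, with a median of -0.7274. Since LC1 lowers the LC mean of most members, results against LC are also given without it.

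**Figure D1:**
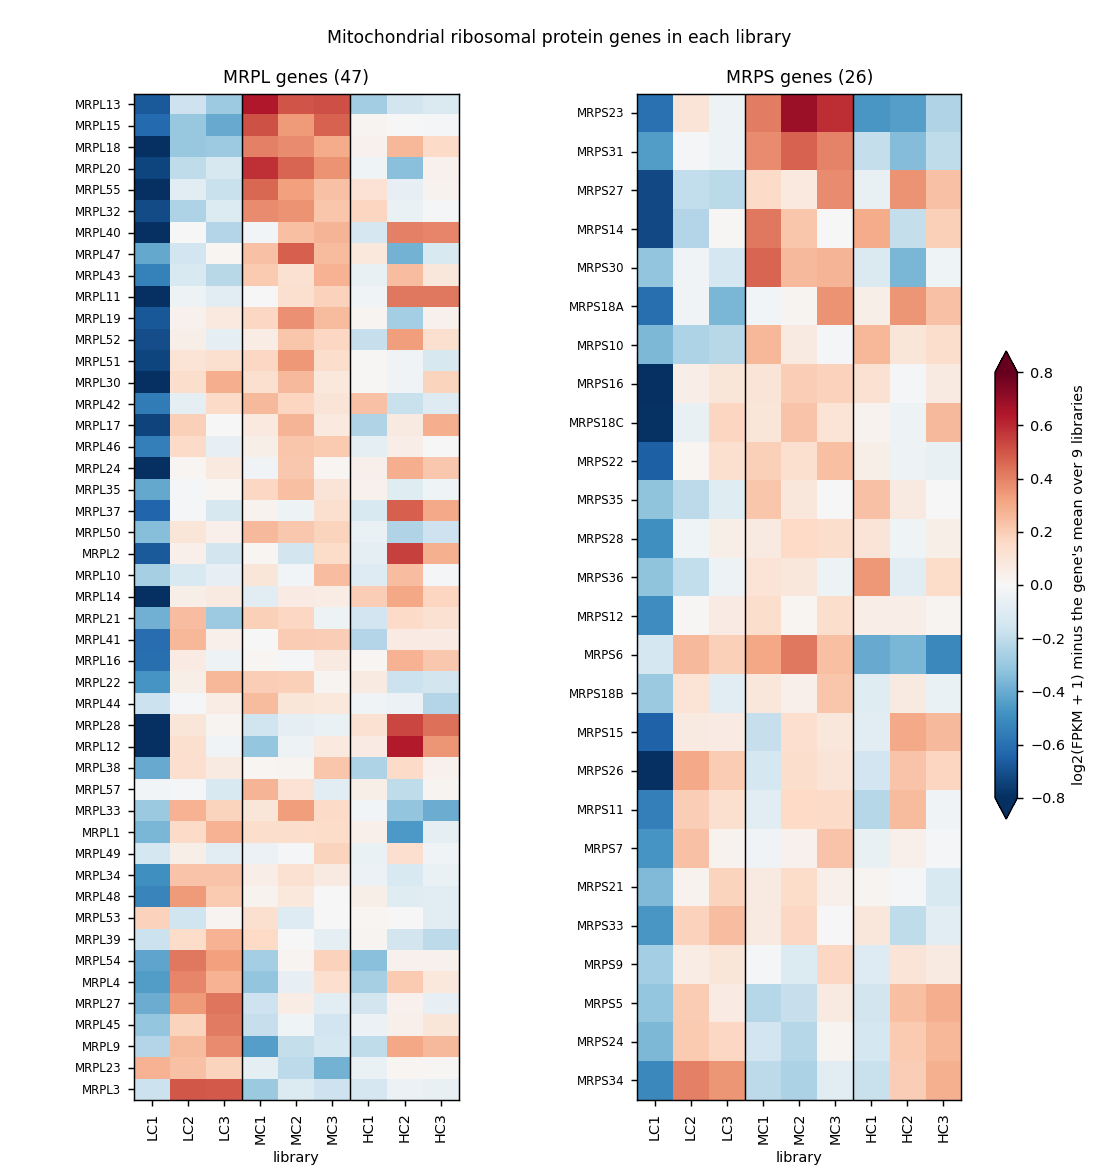
Each row is one of the 73 genes and each column a library. Colour shows the log2(FPKM + 1) of the library minus the mean of that gene over the 9 libraries. For 62 genes the lowest value is in the LC1 column, and for 45 the mean is highest in MC.

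Levels of the 73 genes in this tissue spanned 35-fold. Means over the 9 libraries ran from 12.2 to 426.7 FPKM, with a median of 51.0, and 61 genes lay between 20 and 100 FPKM. The median level was 55.02 FPKM for MRPL and 42.9 FPKM for MRPS genes. MRPL23, a protein near the exit of the peptide tunnel, was highest at 426.7 FPKM, followed by MRPL41 at 249.8 FPKM. MRPL40 (184.8 FPKM), MRPS34 (169.7 FPKM) and MRPL12 (138.3 FPKM), a protein of the stalk to which translation factors bind, came next. MRPS31 was lowest at 12.2 FPKM, below MRPS30 (18.9 FPKM), MRPL44 (19.1 FPKM), MRPL46 (20 FPKM) and MRPL47 (20.5 FPKM). MRPL23 was above every other member in every library, with 324.3 FPKM as its lowest value and 296.8 FPKM as the highest value of MRPL41. The ranges of MRPS30, MRPL44, MRPL46 and MRPL47 over the libraries overlap.

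As a share of all FPKM in a library, the 73 genes together took 0.4461%, 0.4918% and 0.4728% in LC1, LC2 and LC3. The shares were 0.5307%, 0.5532% and 0.5442% in MC and 0.4666%, 0.4824% and 0.4774% in HC. Each MC library was above each of the other 6, and the LC and HC libraries overlapped. The summed FPKM itself did not separate the diets: it was 4817 to 4995 in MC, 4492 to 5071 in HC, and 3371, 5036 and 4874 in the LC libraries. The FPKM of all genes summed to 903006 to 910750 in MC.

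**Figure D2:**
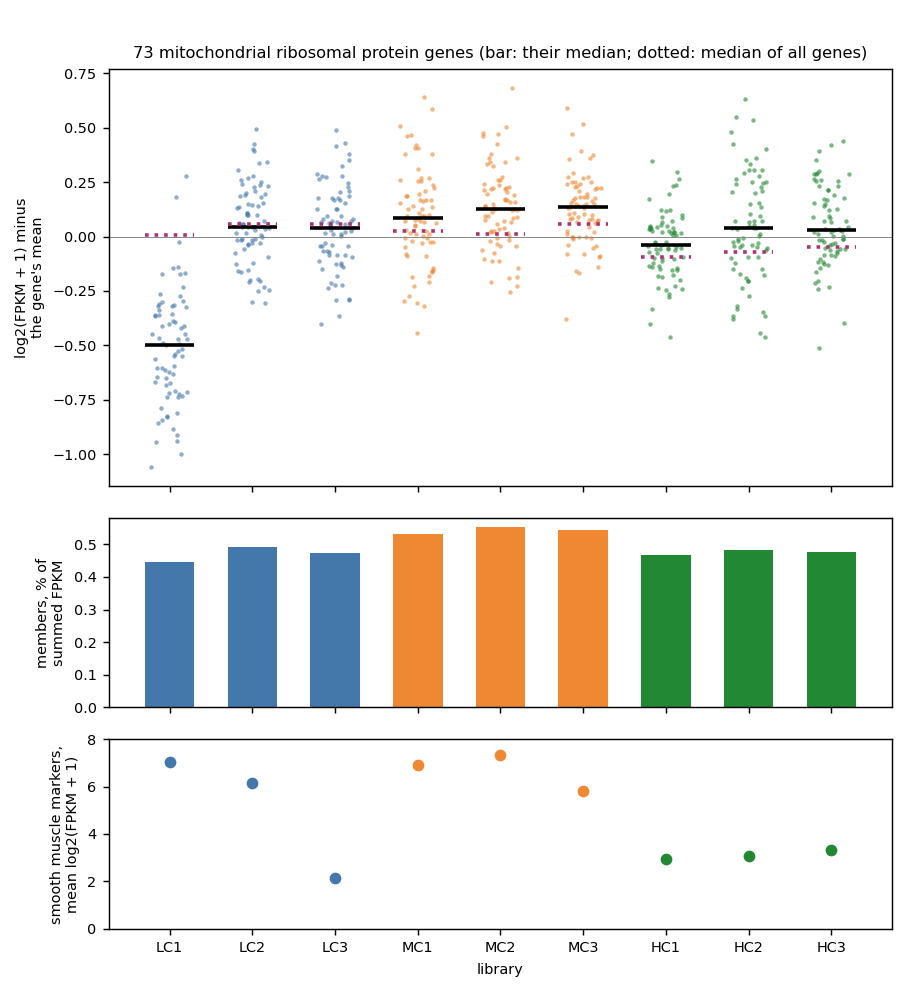
For each library the panels show the deviations of the 73 genes from their own means (log2), their share of the summed FPKM (percent) and the mean log2(FPKM + 1) of 10 smooth muscle markers. LC1 has the lowest deviations, the 3 MC libraries the highest shares, and LC3 and the HC libraries the lowest smooth muscle marker means.

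The diets differed in the limma F test for 15 of the 73 genes (20.5%), against 45.2% of the 11668 genes tested. The share was lower than in the background, and 57 genes passed the test in none of the 3 contrasts. In the main fit no member differed by 1 or more on the log2 scale. Of all genes 6.48% in MC minus LC, 4.96% in HC minus LC and 3.38% in HC minus MC passed the test with such a difference. The largest difference was that of MRPS23 in HC minus MC (-0.94), which reached -1.149 over the alternative settings. MRPL13 in MC minus LC reached 1.036 over them. A member's log2 difference had a median standard error of 0.173 and a median 95% half-width of 0.377. Among members that did not pass, the interval reached 1 for 4 of 67 in HC minus LC, 2 of 59 in MC minus LC and 0 of 65 in HC minus MC. The mean was highest in MC for 45 members, in HC for 17 and in LC for 11, against 38.5%, 20.4% and 41.1% of all genes. Every MC library was above all 6 others for 15 members, against 15.1% of all genes.

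In MC minus LC, 13 members rose and 1 fell, that is 14 of 73 (19.2%), against 33.4% of all genes tested (16.2% higher and 17.1% lower). The log2 difference was above 0 for 61 of the 73, against 49.4% of all genes, and the median was 0.25, against -0.007 over all genes. All MC libraries were above all LC libraries for 26 members and below for 1, MRPL23, against 23.8% and 23.4% of all genes. The rises ranged from 0.39 for MRPS10 to 0.93 for MRPL13 on the log2 scale.

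MRPL13 (chromosome 14, 91830515 to 91867286), a large subunit protein with a bacterial counterpart, stood at 36.4, 52.1 and 47.7 FPKM in LC, 91.9, 83.5 and 84.3 in MC and 48.1, 52.6 and 53.9 in HC. MC was above all 6 other libraries, and LC and HC overlapped. Its mean rose from 45.4 ± 8.11 in LC to 86.5 ± 4.69 FPKM in MC (SD, n = 3 each; log2 difference 0.93 ± 0.15 SE, limma adjusted p = 6.24e-04). MRPL15 (chromosome 14, 32637976 to 32643435), also of the large subunit with a bacterial counterpart, had 19.7, 24.7 and 23.0 FPKM in LC, 44.3, 39.3 and 43.1 in MC and 31.3, 30.7 and 30.5 in HC. Its 3 diets did not overlap, in the order LC, HC, MC. It had the smallest adjusted p of the members in this contrast (log2 difference 0.88 ± 0.12 SE, limma adjusted p = 2.40e-04). The 2 genes are on the same chromosome but far apart.

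MRPL18 (chromosome 9, 82223349 to 82228741), another large subunit protein with a bacterial counterpart, stood at 21.0, 33.4 and 33.7 FPKM in LC, 55.2, 54.2 and 51.0 in MC and 42.4, 49.96 and 46.1 in HC. The LC libraries were the lowest 3 and the MC libraries the highest 3 (log2 difference 0.87 ± 0.17 SE, limma adjusted p = 0.00238). MRPL20 (chromosome 16, 48684080 to 48686160), whose bacterial counterpart binds the ribosomal RNA early in assembly, had 43.9, 63.9 and 67.4 FPKM in LC, 111.1, 102 and 94.7 in MC and 71.8, 58.4 and 75.4 in HC. MC was above both other diets, which overlapped (log2 difference 0.82 ± 0.18 SE, limma adjusted p = 0.00393).

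MRPL32 (chromosome 4, 75661120 to 75666618) is cut to its mature form by a protease of the inner membrane before it enters the large subunit. It stood at 15.8, 22.3 and 24.6 FPKM in LC, 35, 34.6 and 31.4 in MC and 30.2, 25.7 and 26.5 in HC, with no overlap between the diets. It rose by 0.68 ± 0.15 SE on the log2 scale in MC (limma adjusted p = 0.00585). MRPL55 (chromosome 7, 2500694 to 2504260), a large subunit protein, had 32.9, 55.5 and 52.2 FPKM in LC, 82.0, 74.5 and 69.9 in MC and 64.5, 56.7 and 60.4 in HC, also with no overlap. Its rise was 0.71 ± 0.18 SE (limma adjusted p = 0.0107).

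Of the small subunit, MRPS23 (chromosome 19, 8075578 to 8080729) had 35.9, 58.8 and 53.1 FPKM in LC, 73.1, 88.5 and 83.0 in MC and 39.5, 40.0 and 46.2 in HC. MC was highest throughout, and the HC values lay among those of LC (MC minus LC 0.74 ± 0.18 SE, limma adjusted p = 0.00742). MRPS31 (chromosome 12, 19637057 to 19664321), the least abundant member, had 8.43, 11.7 and 11.5 FPKM in LC, 15.7, 16.9 and 15.9 in MC and 10.3, 9.11 and 10.2 in HC. Again MC was highest throughout, and the HC values lay among those of LC (MC minus LC 0.58 ± 0.13 SE, limma adjusted p = 0.00531). MRPS27, which carries the helical repeats typical of RNA-binding proteins of the organelle, had 18.2, 26.6 and 26.3 FPKM in LC and 34.2, 32.4 and 40.0 in MC (0.58, limma adjusted p = 0.0208).

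MRPS30 bears a small subunit name, but the protein sits in the large subunit of mammalian mitoribosomes. It had 14.7, 18.1 and 16.7 FPKM in LC, 26.0, 22.4 and 22.5 in MC and 17.1, 14.2 and 18.1 in HC, so that MC stood above the other diets (0.49, limma adjusted p = 0.0128). MRPS10 was 81.4 ± 4.06 FPKM in LC and 107 ± 10.8 in MC (0.39, limma adjusted p = 0.0396). MRPL43 rose from 29.0 ± 4.42 to 41.1 ± 2.23 FPKM (0.50, limma adjusted p = 0.0177) and MRPL47 from 17.7 ± 2.71 to 25.5 ± 2.55 FPKM (0.51, limma adjusted p = 0.0237).

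MRPL23 (chromosome 29, 47178516 to 47179862), the most abundant member, was the 1 member that fell. It stood at 513.4, 498.3 and 477.9 FPKM in LC, 400.0, 365.7 and 324.3 in MC and 408.0, 426.5 and 426.1 in HC. The LC libraries, LC1 included, were the highest 3 (MC minus LC -0.45 ± 0.14 SE, limma adjusted p = 0.0286). MRPL23 passed in no other contrast.

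**Figure D3:**
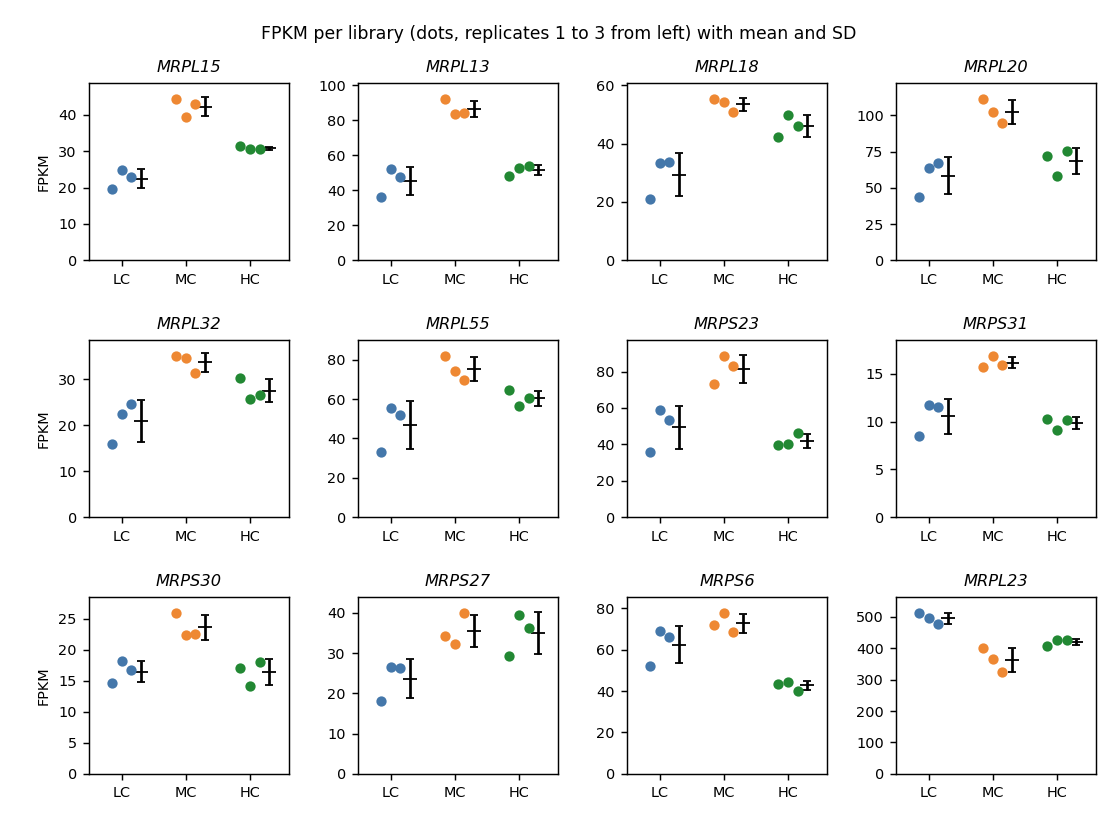
FPKM of 12 genes in each library (points) with the mean and SD of each diet (n = 3). MRPL13, MRPS23 and MRPS31 have their 3 highest values in MC, MRPL23 its 3 highest in LC, and MRPS6 its 3 lowest in HC.

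The MC minus LC calls of MRPL13, MRPL15, MRPL18, MRPL20 and MRPS23 held in all 26 alternative settings. Without LC1 the count was 12 rises and 6 falls, 13 of the 18 shared with the calls above, and the median was 0.0852. The log2 difference was above 0 for 44 of the 73 in that setting. Of all 11668 genes 34.7% were then called, 1851 higher and 2192 lower in MC. MRPL3 (-0.6854), MRPL9 (-0.5727), MRPS34 (-0.5576), MRPL27 (-0.4506) and MRPL45 (-0.4239) were lower in MC without LC1, along with MRPL23 (-0.4298). Single libraries ended some calls. MRPS30 was lost without MC1, MRPS27 without MC3, MRPL43 without MC1 or MC3, and MRPL47 without LC1, LC2 or MC2. MRPS10 and MRPL23 were each lost without any 1 of several libraries. All of these calls were also lost at the threshold of 0.01. With LC3, the library with the lowest smooth muscle markers, standing alone for LC and the spread taken from the other diets, 6 rises and 2 falls were called, and MRPL32 (adjusted p up to 0.083) and MRPS31 (up to 0.0612) no longer passed.

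In HC minus LC, 5 members rose and 1 fell, that is 6 of 73 (8.22%), against 25.2% of all genes tested (7.79% higher and 17.4% lower). The share that rose was near the background and the share that fell was below it. The median over the members was 0.144, against -0.104 over all genes, and 52 of the 73 were above 0, against 38.4% of all genes. The HC libraries were all above LC for 12 members and all below for 2, against 13.3% and 27.4% of all genes.

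MRPL18 rose most, by 0.66 ± 0.17 SE on the log2 scale (limma adjusted p = 0.0152), from 29.4 ± 7.23 in LC to 46.2 ± 3.77 FPKM in HC. MRPS27 had 29.3, 39.6 and 36.1 FPKM in HC, all above LC (0.55, limma adjusted p = 0.0326). MRPL15 rose from 22.5 ± 2.58 to 30.8 ± 0.442 FPKM (0.44 ± 0.12 SE, limma adjusted p = 0.0193), and its HC values, 30.5 to 31.3, were the closest together of its 3 diets. MRPS10, a small subunit protein with a bacterial counterpart, had 76.7, 83.0 and 84.4 FPKM in LC and 118.6, 105.6 and 108.9 in HC (0.44, limma adjusted p = 0.0286).

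MRPS18A (chromosome 23, 16763588 to 16782972) had 25.8, 38.8 and 30.6 FPKM in LC, 39.0, 40.4 and 51.3 in MC and 41.1, 51.0 and 46.8 in HC (HC minus LC 0.54 ± 0.17 SE, limma adjusted p = 0.0338). Its locus in the files is shared with LOC102177763, so its value is uncertain. The 3 MRPS18 genes descend from 1 bacterial ribosomal protein gene, and the product of MRPS18A is found in the large subunit. The other 2 passed in no contrast: MRPS18B was 27.9 ± 4.03, 32.2 ± 2.17 and 29.1 ± 1.88 FPKM and MRPS18C 33.2 ± 10.8, 41.5 ± 2.17 and 39.8 ± 4.53 FPKM in LC, MC and HC.

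MRPS6 (chromosome 1, 687635 to 716490), a small subunit protein with a bacterial counterpart, was the 1 member lower in HC than in LC. It stood at 52.2, 69.3 and 66.0 FPKM in LC, 71.9, 77.9 and 68.5 in MC and 43.5, 44.6 and 40.2 in HC. All HC libraries were below the other 6, and LC and MC overlapped (HC minus LC -0.53 ± 0.14 SE, limma adjusted p = 0.016). In MC minus LC it did not pass (0.22, limma adjusted p = 0.233).

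All of the HC minus LC calls were lost in some settings. Without HC3 no member passed in limma (9 at an unadjusted p under 0.05, and 15.2% of all genes past the adjusted test). Without HC2 2 members did, against 18.1% of all genes. Without LC1 the calls were 3 rises (MRPL15, MRPL18 and MRPS10) and 6 falls (MRPS6, MRPL3, MRPL33, MRPL27, MRPS23 and MRPL34), against 23.9% of all genes called. The median of the members turned from 0.144 to -0.0476, and 32 of the 73 were above 0. MRPS27 (adjusted p up to 0.234 over the alternatives) and MRPS18A (up to 0.108) were among the calls lost without LC1. With the smooth muscle marker mean as a covariate 1 member passed, MRPS6, against 18.1% of all genes. Median-of-ratios scaling moved the median of all genes from -0.104 to 0.041 and that of the members to 0.311. It called 18 members and 24.1% of all genes.

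In HC minus MC, 8 members fell and 0 rose, that is 8 of 73, against 25.0% of all genes tested (8.0% higher and 17.0% lower). No member was higher in HC at an unadjusted p under 0.05 either, against 12.8% of all genes. The median was -0.087, against -0.105 over all genes, and 24 of the 73 were above 0, against 39.6%. The HC libraries were all below MC for 21 members and all above for 3, against 31.6% and 14.7% of all genes. HC minus MC and MC minus LC share the MC libraries, so their differences are not independent of each other.

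MRPS23 fell most, from 81.5 ± 7.83 in MC to 41.9 ± 3.77 FPKM in HC (-0.94 ± 0.18 SE, limma adjusted p = 0.00342). MRPS6 fell by 0.75 ± 0.14 SE on the log2 scale (limma adjusted p = 0.00301), MRPL13 by 0.74 ± 0.15 SE (limma adjusted p = 0.00468) and MRPS31 by 0.66 ± 0.13 SE (limma adjusted p = 0.00468). These 4 calls held in all 26 alternative settings. MRPL20 (-0.58), MRPS30 (-0.50), MRPL47 (-0.46) and MRPL15 (-0.44) were also lower in HC. For these 4 the adjusted p reached 0.121, 0.115, 0.165 and 0.0937 over the alternatives, and each call was lost without MC1 and without HC2. MRPL18 (-0.21, adjusted p = 0.385) did not pass.

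The number of members called in HC minus MC was 4 without MC1 and 4 without HC2, 5 without MC3 and 5 without HC3, and 14 without LC1, where 12 fell and 2 rose. The shares of all genes called moved as well. They were 14.4%, 15.4%, 19.9%, 13.9% and 34.8% in the same order, against 25.0% with all libraries. Median-of-ratios scaling left 4 of the calls and turned the median of the members from -0.087 to 0.047, as that of all genes went from -0.105 to 0.012. With the smooth muscle marker mean as a covariate 4 members passed, where 9.22% of all genes did, but the estimated differences were larger. The median of the members was then -0.355, 65 of 73 were below 0, and 18 had an unadjusted p under 0.05 against 10 without the covariate. The marker means did not overlap between MC (5.83 to 7.34) and HC (2.93 to 3.32). Marker level and diet therefore cannot be told apart in this contrast, and the covariate does not settle what the muscle share contributes. In further settings, members other than these 8 were called as rises. Library weights gave 9 rises and 21 falls, and median-of-ratios scaling without LC1 gave 10 rises and 7 falls. Upper-quartile scaling, only the 2 diets compared and the replicate block gave 1 rise each.

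**Figure D4:**
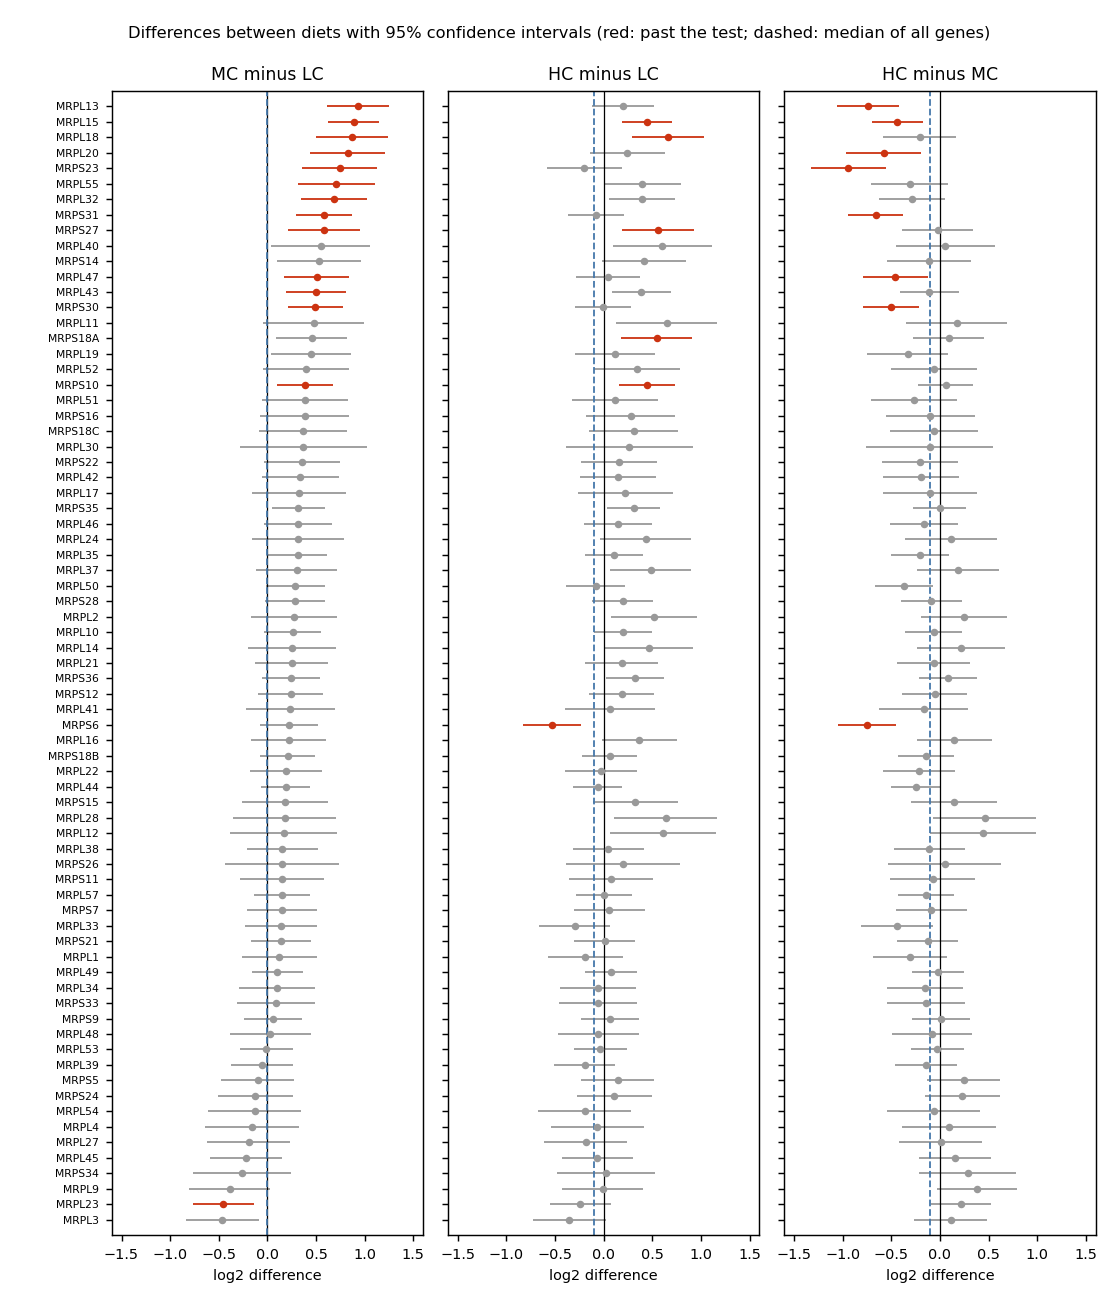
Log2 difference of each of the 73 genes in the 3 contrasts with its 95% interval from limma. Red marks genes past the test, and the dashed line is the median of all genes tested. In MC minus LC most genes lie to the right of 0, and in HC minus MC all 8 red genes lie to the left.

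By subunit name, 8 of 47 MRPL genes rose and 1 fell in MC minus LC, with a median of 0.25, and 5 of 26 MRPS genes rose, with a median of 0.24. In HC minus LC 2 MRPL genes rose, and 3 MRPS genes rose and 1 fell. In HC minus MC 4 of each fell. By origin, 41 members have a bacterial counterpart and 27 do not, by lists drawn up for this work, and 5 are in neither list. Of the first, 7 rose and 1 fell in MC minus LC (median 0.239), and of the second 5 rose (median 0.287). These shares are to be read against the 16.2% of all genes that rose and the 17.1% that fell in MC minus LC. Of all genes, 7.79% rose and 17.4% fell in HC minus LC, and 8.0% and 17.0% in HC minus MC. Without LC1, 7 MRPL genes rose and 5 fell in MC minus LC (median 0.063), and 5 MRPS genes rose and 1 fell (0.095). Of all 11668 genes 1851 rose and 2192 fell in that setting. The median there was 0.01 for members with a bacterial counterpart and 0.114 for those without. No difference between classes was tested.

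The stalk of the large subunit and its base are formed by MRPL10, MRPL11, MRPL12, MRPL53 and MRPL54, and none of the 5 passed the test in any contrast (limma). At an unadjusted p under 0.05, MRPL11 and MRPL12 were higher in HC than in LC. Against the mean of LC2 and LC3, LC1 was lower in MRPL11 (log2 difference -0.942) and in MRPL12 (-0.935). Without LC1 none of the 5 passed in HC minus LC, and MRPL12 rose in HC minus MC (0.44, limma adjusted p = 0.0438). MRPL12 had 71.9, 146.2 and 130.8 FPKM in LC, 107.6, 129.4 and 140.7 in MC and 139.9, 207.3 and 170.8 in HC, and the diets overlapped (HC minus LC 0.61, 95% interval 0.0629 to 1.159, adjusted p = 0.0957). MRPL11 had 51.6, 101.7 and 98.6 FPKM in LC and 102.6, 140.4 and 140 in HC (0.65, adjusted p = 0.0671). MRPL53 was level, at 32.4 ± 3.92, 32.1 ± 2.67 and 31.4 ± 1.21 FPKM in LC, MC and HC, and its MC minus LC interval ran from -0.284 to 0.263. MRPL10 was 37.3 ± 2.69, 44.96 ± 4.35 and 43.1 ± 5.71 FPKM, and MRPL54 63.4 ± 18.6, 56.4 ± 8.97 and 53.8 ± 7.75 FPKM.

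Of the abundant members, MRPL40, MRPL41 and MRPS34 passed in no contrast, and their diets overlapped. MRPL41 was 237 ± 69.5 FPKM in LC, 271 ± 21.0 in MC and 242 ± 28.2 in HC. MRPL40 was 142 ± 42.9, 201 ± 21.8 and 211 ± 42.3 FPKM in the same order (adjusted p 0.0902 in MC minus LC and 0.078 in HC minus LC). MRPS34, which stabilises the RNA of the small subunit, was 182 ± 58.0, 147 ± 9.22 and 180 ± 29.5 FPKM. Of the scarce members, MRPL44 was 18.4 ± 1.55, 21.1 ± 1.497 and 17.6 ± 1.41 FPKM, with its 3 MC libraries above the other 6 but no call, and MRPL46, whose diets overlapped, was 18.0 ± 4.48, 22.2 ± 1.51 and 19.7 ± 0.928 FPKM. MRPS36, now known as a component of the oxoglutarate dehydrogenase complex, was 24.5 ± 2.47, 29.1 ± 1.71 and 31.0 ± 4.82 FPKM and passed in no contrast. It falls outside the rule for named genes, as do MRPL3, MRPL9, MRPL27, MRPL30, MRPL33, MRPL34, MRPL43, MRPL45, MRPL57 and the epithelial genes KRT4, DSG3 and TP63, and these were chosen after their values were seen.

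The 73 genes lie on 27 chromosomes, with 8 on chromosome 11, 7 on chromosome 19 and MRPS34 on an unplaced contig. The files place MRPL46 (chromosome 21, 17557322 to 17567375) and MRPS11 (17567414 to 17578220) 38 bases apart. Loci of 11 members (15.1%, against 12.8% of all genes) overlap that of another gene, so their values are uncertain: MRPL9, MRPL14, MRPL22, MRPL27, MRPL33, MRPL38, MRPL49, MRPS7, MRPS9, MRPS18A and MRPS35.

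Of 6 mitoribosome proteins without an MRP name, 2 rose in MC minus LC and the same number fell in HC minus MC, and in HC minus LC none passed in limma and 0 had an unadjusted p under 0.05. Without LC1, 2 rose and 1 fell in MC minus LC. For this list and those that follow, the shares of all genes are given here, rises first. They were 16.2% and 17.1% in MC minus LC, 7.79% and 17.4% in HC minus LC, and 8.0% and 17.0% in HC minus MC. Without LC1 the counts over all 11668 genes were 1851 and 2192, 787 and 2003, and 1320 and 2746 in that order. DAP3, a GTP-binding protein of the small subunit, had 6.10, 9.88 and 9.09 FPKM in LC, 15.3, 14.8 and 14.7 in MC and 10.03, 10.7 and 9.22 in HC (MC minus LC 0.79 ± 0.15 SE, limma adjusted p = 0.00206). PTCD3, which lies where messenger RNA enters the small subunit, had 14.4, 17.8 and 18.0 FPKM in LC, 26.9, 26.9 and 27.8 in MC and 18.1, 19.8 and 17.2 in HC (0.68 ± 0.12 SE, limma adjusted p = 0.00134). In both, MC was above all other libraries, as in MRPS23 and MRPS31. HC minus MC was -0.54 for DAP3 (limma adjusted p = 0.0238, up to 0.0895 over the alternatives, lost without MC1, MC2 or HC3) and -0.54 for PTCD3 (limma adjusted p = 0.00774). AURKAIP1 (85.7 ± 35.3, 93.1 ± 9.78 and 112 ± 21.4 FPKM in LC, MC and HC), CHCHD1 (means 75.2, 84.1 and 74.3 FPKM), GADD45GIP1 (means 54.2, 49.5 and 56.0 FPKM) and the ribosome rescue factor ICT1 (61.2 ± 10.1, 70.8 ± 7.56 and 74.0 ± 14.3 FPKM) did not pass.

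Among 26 genes of mitoribosome assembly and ribosomal RNA maturation, 6 rose and 5 fell in MC minus LC, with a median of 0.051. In HC minus LC 4 rose and 4 fell, and in HC minus MC 1 rose and 6 fell. Without LC1, 5 rose and 7 fell in MC minus LC (median 0.007), and 2 rose and 5 fell in HC minus LC. RPUSD4 (-0.57, limma adjusted p = 0.0201, up to 0.0724 over the alternatives) fell in HC minus LC. So did NGRN (-0.47, limma adjusted p = 0.022, up to 0.109). Larger differences than in any of the 73 ribosomal protein genes were found here. The genes that follow rose in MC, while the lowest log2 difference of the list in MC minus LC was -0.818. MPV17L2, an inner membrane protein needed for ribosome assembly, stood at 5.81, 9.87 and 8.72 FPKM in LC, 23.8, 25.8 and 32.0 in MC and 13.8, 13.0 and 14.3 in HC, with no overlap between diets (MC minus LC 1.64 ± 0.17 SE, limma adjusted p = 3.80e-05). MTERF3, of the mitochondrial transcription termination factor family, rose from 7.28 ± 0.467 in LC to 17.0 ± 2.45 FPKM in MC (1.11 ± 0.13 SE, limma adjusted p = 7.68e-05). MRM1, a methyltransferase of the large subunit RNA, was 3.45 ± 0.784 FPKM in LC, 8.80 ± 1.48 in MC and 2.42 ± 0.446 in HC (MC minus LC 1.14, limma adjusted p = 3.52e-04; HC minus MC -1.52, limma adjusted p = 1.56e-04).

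Of 13 mitochondrial translation factors, 2 rose in MC minus LC, 1 fell in HC minus LC and 3 fell in HC minus MC. Without LC1, 2 rose and 1 fell in MC minus LC, and 3 fell in HC minus LC. The elongation factor gene TSFM rose from 64.9 ± 13.7 FPKM in LC to 92.8 ± 6.67 in MC (0.53, limma adjusted p = 0.0248, up to 0.136 over the alternatives, lost without any 1 MC library). The release factor gene MTRF1L was 6.396 ± 0.693, 9.27 ± 0.0768 and 5.45 ± 1.25 FPKM in LC, MC and HC (HC minus MC -0.69, limma adjusted p = 0.00663, up to 0.163 with the smooth muscle covariate). GUF1, a GTPase that acts on stalled ribosomes, was lower in HC at 7.89 ± 0.876 FPKM than in LC at 12.3 ± 0.756 (-0.58, limma adjusted p = 0.00356) and MC at 11.96 ± 0.535.

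Of 19 mitochondrial aminoacyl-tRNA synthetase genes, which charge the transfer RNAs these ribosomes use, 2 rose and 1 fell in MC minus LC. Their median was -0.193, and of all genes 16.2% rose and 17.1% fell. Without LC1, 1 rose and 6 fell, with a median of -0.289. MARS2 rose from 6.08 ± 0.412 FPKM in LC to 13.3 ± 2.23 in MC (1.01, limma adjusted p = 1.62e-04), and WARS2 fell from 12.2 ± 0.397 to 5.83 ± 0.641 FPKM (-0.95, limma adjusted p = 7.53e-05). The 2 genes, for methionine and tryptophan, thus moved in opposite directions.

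Of 17 tested regulators of mitochondrial transcription and biogenesis, 3 rose and 3 fell in MC minus LC, and the median was -0.001. Without LC1, 2 rose and 3 fell, with a median of -0.038. TFB2M, needed for transcription of the mitochondrial genome to start, had 12.1, 14.7 and 17.2 FPKM in LC, 29.7, 31.6 and 30.02 in MC and 17.0, 16.1 and 15.7 in HC, with MC above all others (MC minus LC 1.02 ± 0.13 SE, limma adjusted p = 1.56e-04; HC minus MC -0.87, limma adjusted p = 0.001). The coactivator gene PPRC1 was 2.33 ± 0.383, 6.01 ± 1.15 and 3.50 ± 0.624 FPKM in LC, MC and HC (MC minus LC 1.07, limma adjusted p = 3.87e-04). Of the transcription factors best known for driving ribosomal protein genes of the organelle, neither NRF1 nor GABPA passed in any contrast. GABPB2, of the same list, fell in MC minus LC (-0.67, limma adjusted p = 0.0106). It also fell in HC minus LC (-0.51, limma adjusted p = 0.0483, lost in 20 of 25 alternative settings). POLG2 fell in HC minus LC (-0.59, limma adjusted p = 0.00801). PPARGC1B was higher in HC than in MC (0.70, limma adjusted p = 0.00606, up to 0.13 with the smooth muscle covariate). Of 17 genes of import, chaperones and organelle content, 3 rose in MC minus LC and 3 in HC minus LC. Without LC1, 3 rose and 2 fell in MC minus LC, and 2 rose in HC minus LC. HSPE1, the chaperonin partner of HSPD1, had mean levels of 249.9, 423.5 and 407.8 FPKM in LC, MC and HC (MC minus LC 0.82, limma adjusted p = 0.0234, up to 0.0898 over the alternatives, lost without MC2 or MC3).

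The 73 cytosolic ribosomal protein genes had a median log2 difference of -0.042 in MC minus LC, 0.31 in HC minus LC and 0.336 in HC minus MC, against 0.25, 0.144 and -0.087 for the mitoribosome genes. In the cytosolic set 1 rose and 1 fell in MC minus LC, 1 fell in HC minus LC, and 2 rose and 1 fell in HC minus MC. Of all genes 33.4%, 25.2% and 25.0% were called in these contrasts. Without LC1 the cytosolic medians were -0.276 in MC minus LC (29 fell) and 0.053 in HC minus LC, against 0.085 and -0.048 for the mitoribosome genes, and 41 cytosolic genes rose in HC minus MC. Of all 11668 genes 2192 fell in MC minus LC and 1320 rose in HC minus MC in that setting. The difference between the 2 sets was not tested. Of 7 tested protein genes of the mitochondrial genome, whose messengers the mitoribosome translates, 2 rose in MC minus LC and 2 in HC minus LC. None passed in HC minus MC in limma, and 0 had an unadjusted p under 0.05 there. Without LC1, 3 rose in MC minus LC, 2 rose in HC minus LC and 1 fell in HC minus MC.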

How the data were processed

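Each library has 1 deposited table of FPKM per gene. Per the submitters' processing notes, the authors used Bowtie (version 1.2.0) and Cufflinks (version 2.2.1). No label names the unit, which was taken from Cufflinks and from the numbers themselves. The genome build is not given in the sources used here. Coordinates come from the files and count from 1, and the files hold no strand.

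Analysis used log2(FPKM + 1), a scale on which low genes change less. A gene needed a value in all 9 libraries and at least 1 FPKM in 3 of them. This left 11668 genes and removed 211 that were high enough but not listed everywhere. All libraries entered 1 limma fit (version 3.58.1, R 4.3.3) with diet as the factor and with the trend and robust options. Tests were two-sided with 6 residual degrees of freedom, and p-values were adjusted by Benjamini-Hochberg over all genes (threshold 0.05). The code was tested on simulated data. Other software was Python 3.11.15, pandas 2.3.3, numpy 2.4.6, matplotlib 3.10.9 and statmod 1.5.0 (library weights).

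The members, lists, tests and alternatives were chosen with earlier results of these data known. Named in each contrast are up to 8 rises and 8 falls, the largest among called members with no overlap between diets. Also named are the members with the 10 smallest F test p-values, the 5 highest and 5 lowest levels, the MRPS18 and stalk genes, the mitoribosome proteins without an MRP name, and up to 3 genes per other list and contrast. LC3 alone for LC, and median-of-ratios scaling without LC1, were chosen after seeing the data. Promoter and protein sequences were not used here.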

Additional observations from a re-analysis of the deposited data

How the results depend on the processing

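The counts of members past the test were 6 for HC minus LC, 14 for MC minus LC, 8 for HC minus MC and 15 for the F test. Leaving out 1 library at a time gave 0 to 9, 11 to 18, 4 to 14 and 10 to 21 in that order. The shares of all genes called then ran from 15.2% to 24.1%, 24.3% to 34.7%, 13.9% to 34.8% and 34.2% to 50.6%. In HC minus LC the count was 0 without HC3 and 2 without HC2, and there the threshold of 0.01 gave 0 (18 at an unadjusted p under 0.05), only the 2 diets compared 3, the smooth muscle covariate 1, LC3 alone for LC 2, median-of-ratios scaling 18 (13 without LC1), upper-quartile scaling 14, quantile normalization 13, rescaling without cytosolic ribosomal and mitochondrially encoded genes 15, and library weights 29. In MC minus LC the threshold of 0.01 gave 7, the rescaling 22, library weights 24 and LC3 alone 8. In HC minus MC the threshold of 0.01, median-of-ratios scaling and the covariate gave 4 each, median-of-ratios scaling without LC1 17 (10 higher, 7 lower) and library weights 30 (9 higher, 21 lower). In the F test the threshold of 0.01 gave 7, median-of-ratios and upper-quartile scaling 23 each, the rescaling 27, library weights 44 and median-of-ratios scaling without LC1 26. Library weights raised the share of all genes called as well, to 50.5%, 47.9%, 56.5% and 74.7% in the order above. In MC minus LC the rescaling gave 31.1%. In HC minus MC median-of-ratios scaling gave 23.4% (33.5% without LC1) and the covariate 9.22%. In the F test that share was 45.2% in the main fit and 25.1% at the threshold of 0.01. It was 43.9% with median-of-ratios scaling, 45.3% with upper-quartile scaling and 42.0% with the rescaling. Median-of-ratios scaling without LC1 gave 48.1%. The cause of these changes was not tested. Apart from these and the replicate block, the alternatives kept the counts within 1.5 times, and no called member turned its direction.

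Libraries share numbers across diets. Deviations from the diet means of same-numbered libraries correlated at -0.076 to 0.504 over the genes tested. A library correlated best with its own number in 11 of 18 comparisons with another diet, each among 3 libraries. The labels give no meaning for the numbers, and they were not taken as a pairing in the main fit. Whether same-numbered libraries share a source was not tested. With a replicate block the counts were 13 for HC minus LC, 20 for MC minus LC, 9 for HC minus MC and 24 for the F test, more than 1.5 times those without it for the first and the last, and the shares of all genes called were 32.1%, 39.5% and 33.2% in the contrasts. Depth is unknown, and 3 libraries per diet limit the precision.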

Other observations

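Many mitoribosome genes lie close to another gene. Of the 73, 31 (42.5%) have another gene within 1000 bases in the files, against 21.2% of the 13820 genes listed in all libraries. Among these, MRPL27, MRPL33, MRPL49 and MRPS18A have the start and end of an overlapping gene. Their distances therefore run from the edge of a shared locus. MRPL46 and MRPS11 are each other's neighbour, so there are 30 pairs, and in 25 both genes were tested. In MC minus LC 6 of the members and 5 of the neighbours in these pairs passed in limma, against 33.4% of all genes. The counts were 2 and 4 in HC minus LC, against 25.2%, and 1 and 8 in HC minus MC, against 25.0%. Both genes of a pair passed in 0 pairs in each contrast, a count that such low numbers make uninformative. MRPL47 and NDUFB5, a subunit gene of respiratory complex I, are 29 bases apart. NDUFB5 had a log2 difference of -0.05 in MC minus LC (limma adjusted p = 0.829), where MRPL47 rose by 0.51. MRPL32 lies 172 bases from the proteasome gene PSMA2 (0.19, limma adjusted p = 0.394), and MRPL18 lies 796 bases from TCP1, a subunit gene of the cytosolic chaperonin. TCP1 was 145 ± 31.2 FPKM in LC, 196 ± 2.38 in MC and 185 ± 21.9 in HC (MC minus LC 0.45, limma adjusted p = 0.0666). These neighbours were chosen after their values were seen, and no difference within a pair was tested.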
